A study of Mus musculus with 8 samples.

Results

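The 35 genes described here encode the machinery that copies DNA and the enzymes that supply its building blocks, in colon epithelial cells of mice with altered glycan-building enzymes. They were taken by symbol from tables of 24346 genes, and all 35 were found and passed the filter of a mean of at least 1 FPKM (a fragment count divided by transcript length and by the mapped fragments of the library). The mice were untreated C57BL/6J animals of 4 genotypes named in the labels as wild-type, St6galnac6-/-, B3galt5D116A and B3gnt7-/-. St6galnac6 is a sialyltransferase, B3gnt7 an N-acetylglucosaminyltransferase, and B3galt5 a galactosyltransferase that carries a substitution. Each genotype had 1 male and 1 female library, so n = 2 per genotype and 8 libraries in all. No age is labelled, nor how many animals gave each library, so a p-value here reflects library-to-library spread alone, which may be technical. Each combination of genotype and sex had 1 library, so sex within a genotype cannot be told apart from other differences between its 2 libraries.

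Before a cell divides, the origin recognition complex, with Cdc6 and Cdt1, loads the ring of Mcm2 to Mcm7 onto DNA, and Cdc45 with the GINS complex turns that ring into the working helicase. Primase and the replicative polymerases then copy the strands, held by the sliding clamp Pcna, while ribonucleotide reductase, thymidylate synthase and their partners make the nucleotides. In the colon these genes are known to be used by the dividing cells of the lower crypt and to be shut down as cells differentiate toward the surface, and many of them are targets of the E2F transcription factors.

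The promoters of members with a match to an E2F motif are shown because the members moved together between libraries and E2F is their common textbook regulator. The letters TTTGGCGC, TTTCCCGC, TTTGCCGC and TTTCGCGC were searched on both strands in the 250 bases upstream of each start (RefSeq, GRCm38.p6), and matches may overlap. Of the 35 members, 30 had a promoter in the table and 8 of those (26.7%) held a match, against 2.16% of the 27025 genes in the table. Each sequence runs 5′ to 3′ on the strand of its gene, with the match in capitals.
Orc1, chr4:108579384-108579453, + strand: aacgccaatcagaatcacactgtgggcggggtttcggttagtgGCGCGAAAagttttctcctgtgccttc
Uhrf1, chr17:56304103-56304172, + strand: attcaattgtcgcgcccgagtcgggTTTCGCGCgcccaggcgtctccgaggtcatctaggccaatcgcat
Mcm7, chr5:138172004-138172073, - strand: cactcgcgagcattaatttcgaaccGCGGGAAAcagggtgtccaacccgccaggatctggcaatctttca
Rfc3, chr5:151651209-151651278, - strand: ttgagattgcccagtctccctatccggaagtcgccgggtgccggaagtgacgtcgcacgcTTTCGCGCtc
Mcm5, chr8:75109331-75109400, + strand: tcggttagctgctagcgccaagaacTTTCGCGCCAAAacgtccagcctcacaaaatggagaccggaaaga
Cdc6, chr11:98907988-98908057, + strand: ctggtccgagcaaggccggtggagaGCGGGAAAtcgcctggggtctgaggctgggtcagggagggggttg
Mcm6, chr1:128359720-128359840, - strand: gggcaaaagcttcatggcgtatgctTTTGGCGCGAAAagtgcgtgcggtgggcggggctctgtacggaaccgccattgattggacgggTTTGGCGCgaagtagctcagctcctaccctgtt
Pola1, chrX:93632249-93632318, - strand: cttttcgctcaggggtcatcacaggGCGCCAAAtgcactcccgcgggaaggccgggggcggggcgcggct

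Mcm5 held 2 overlapping matches, TTTCGCGC and TTTGGCGC on opposite strands, and Mcm6 held 3 matches, 2 of which overlapped. Among 30 mitosis genes listed for comparison, 27 had a promoter in the table and 1 of them (3.70%) held an E2F match. The letters CCAAT, the box bound by NF-Y, stood in 19 of the 30 members (63.3%), in 20 of the 27 mitosis genes (74.1%) and in 37.5% of all genes. TTTGAA, the cell cycle homology region known from mitotic genes, stood in 3 members (10%), in 9 mitosis genes (33.3%) and in 18.3% of all genes. The last 2 motifs were chosen after the E2F counts were seen. A match is a description of letters and not a measured site. Upstream here refers to the RefSeq start, which can differ from the GENCODE gene positions printed below. By the GENCODE positions, the marked matches of Orc1, Uhrf1, Mcm7, Rfc3 and Cdc6 lie within the gene.

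The libraries are described first. Read counts were not used here, so the depth is unknown and counting intervals cannot be given. Relative depth, read from the smallest values above 0, ran from 1 in the wild-type male to 1.45 in the B3galt5D116A male library. Both wild-type libraries, at 1 and 1.05, were lower than every mutant library (1.18 to 1.45). Relative depth thus differed between mutants and wild-type, and its part in those comparisons was not tested. Epithelial markers were high throughout, with Epcam at 864 to 953 FPKM. B and plasma cell markers summed to 0.349 to 1.22 FPKM over 8 genes, with Tnfrsf17 at 0 in all 4 genotypes but the B cell surface gene Ms4a1 at up to 0.320 FPKM. Stromal and muscle markers summed to 9.92 to 14.0 FPKM over 11 genes in 7 libraries and to 41.99 FPKM in the B3gnt7-/- female library, which also had the lowest mean of 8 heat shock genes (6.28 on the log2 scale, against 7.20 to 8.45 in the others). That library therefore stands apart, and the span and the comparisons of B3gnt7-/- with the other genotypes are also given below without it. For the other comparisons with wild-type, only the members' direction and the change in their count at an unadjusted p under 0.05 are given without it. St6galnac6-/- against B3galt5D116A is not given separately without that library. The difference between the 2 B3gnt7-/- libraries has no value without the female. St6galnac6 was lowest in both St6galnac6-/- libraries (218 and 232 FPKM, against 343 to 495 FPKM in the others), and B3gnt7 was lowest in both B3gnt7-/- libraries (68.8 and 142 FPKM, against 154 to 266 FPKM). Transcript thus remained in both knockouts, and the removed part of each gene is not labelled. The substitution in B3galt5 is not checked by its transcript level.

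Most of the replication genes moved together between libraries, and the 2 libraries of each mutant stood far apart, while those of wild-type were close. On the log2(FPKM + 1) scale, the mean over the 35 members was 3.27 in the wild-type male and 3.26 in the wild-type female. It was 3.26 and 3.69 in St6galnac6-/-, 3.42 and 3.78 in B3galt5D116A, and 3.62 and 3.17 in B3gnt7-/-, males first. The B3galt5D116A female library was therefore highest and the B3gnt7-/- female library lowest, a span of 0.61 log2 units or 1.52-fold on that scale, and of 0.52 or 1.43-fold without the B3gnt7-/- female. Both B3galt5D116A libraries lay above both wild-type libraries. The genotype means ± SD (n = 2) were 3.27 ± 0.0043 in wild-type, 3.47 ± 0.30 in St6galnac6-/-, 3.60 ± 0.25 in B3galt5D116A and 3.40 ± 0.32 in B3gnt7-/-. The pooled SD within a genotype was 0.25, and 0.23 without B3gnt7-/-. In this bulk RNA, fewer cells of a type and less RNA per cell cannot be told apart.

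**Figure D1:**
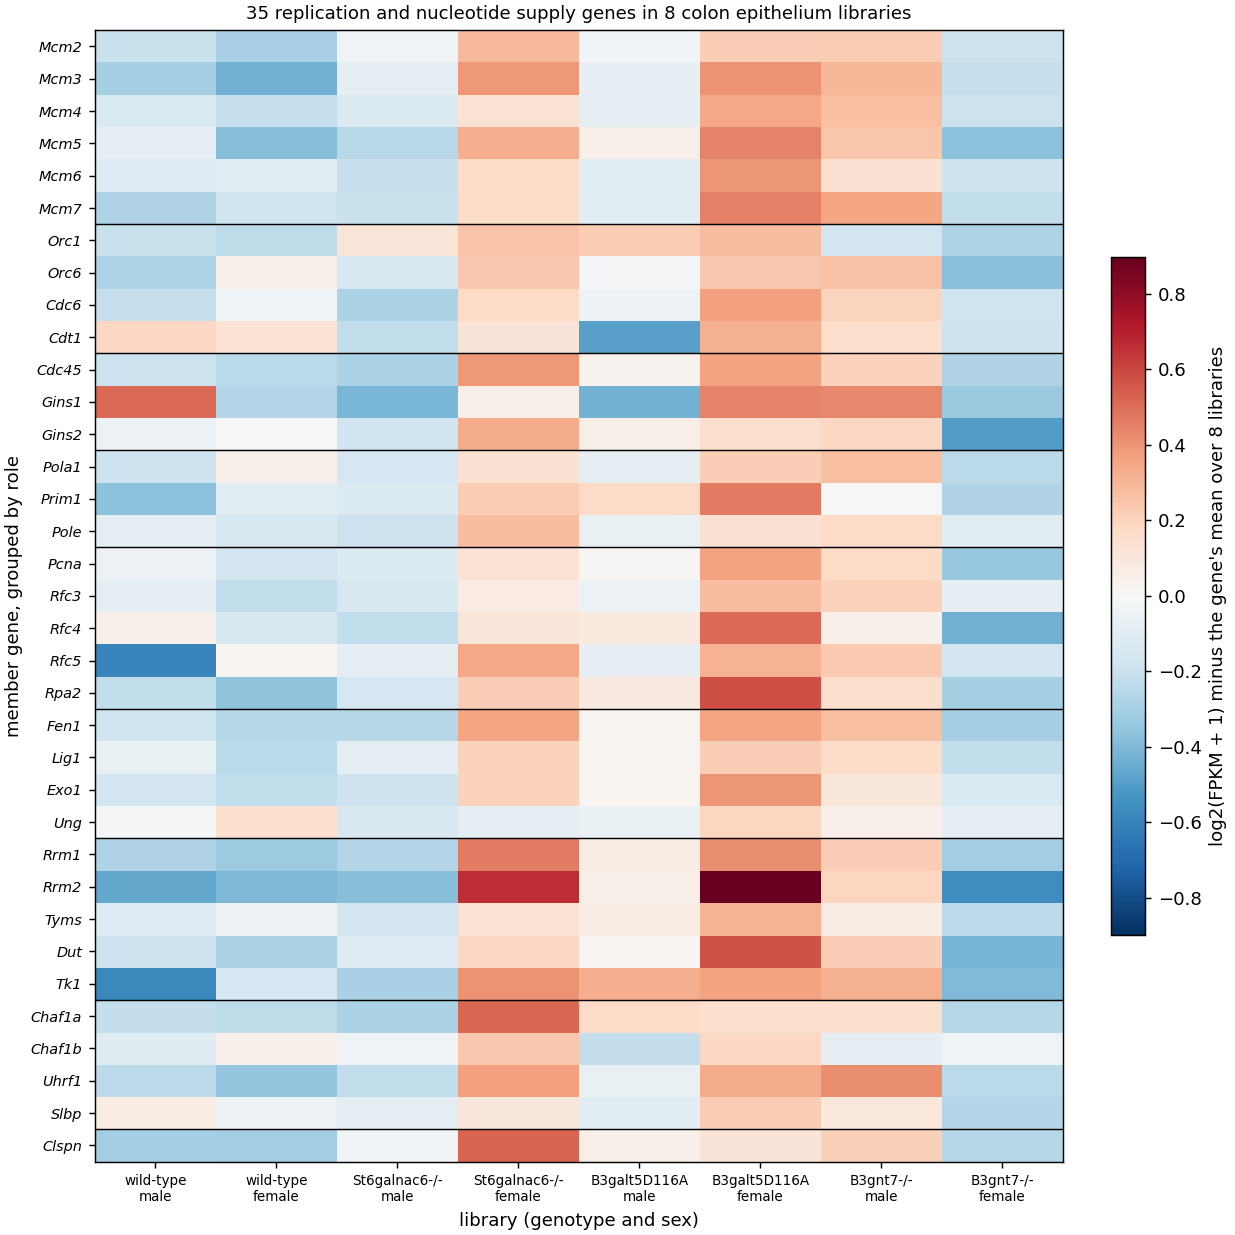
Level of each of the 35 members (rows, grouped by role, with black lines between roles) in each of the 8 libraries (columns). Colour gives log2(FPKM + 1) minus the mean of that gene over the 8 libraries. The St6galnac6-/- female, B3galt5D116A female and B3gnt7-/- male columns are red for most members, and the wild-type, St6galnac6-/- male and B3gnt7-/- female columns are blue for most.

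The direction between the 2 libraries of a genotype was shared by nearly all members and turned over between genotypes. In St6galnac6-/- all 35 members were higher in the female than in the male library (median difference 0.38), against 50.4% of the 11537 tested genes. In B3galt5D116A 34 of 35 were higher in the female (median 0.35), against 49.3% of tested genes, with Chaf1a as the exception. In B3gnt7-/- 34 of 35 were lower in the female (median -0.46), against 52.3% of tested genes, with Chaf1b as the exception. In wild-type 13 were higher and 22 lower in the female (median -0.05), and 47.5% of tested genes were higher. Across males and females of all genotypes, limma called 0 of 35 members (0.052% of tested genes were called), with 0 at an unadjusted p under 0.05 (1.66% of tested genes) and a median male minus female difference of -0.08. The direction between the sexes rested on the libraries included. All 35 members were lower in males without either B3gnt7-/- library. Without either St6galnac6-/- library 23 of 35 were higher in males, without either B3galt5D116A library 18, and without either wild-type library 1. Over the libraries left out the median ran from -0.25 to 0.05. When 1 library of a genotype is left out, the other carries no information on sex in this fit.

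**Figure D2:**
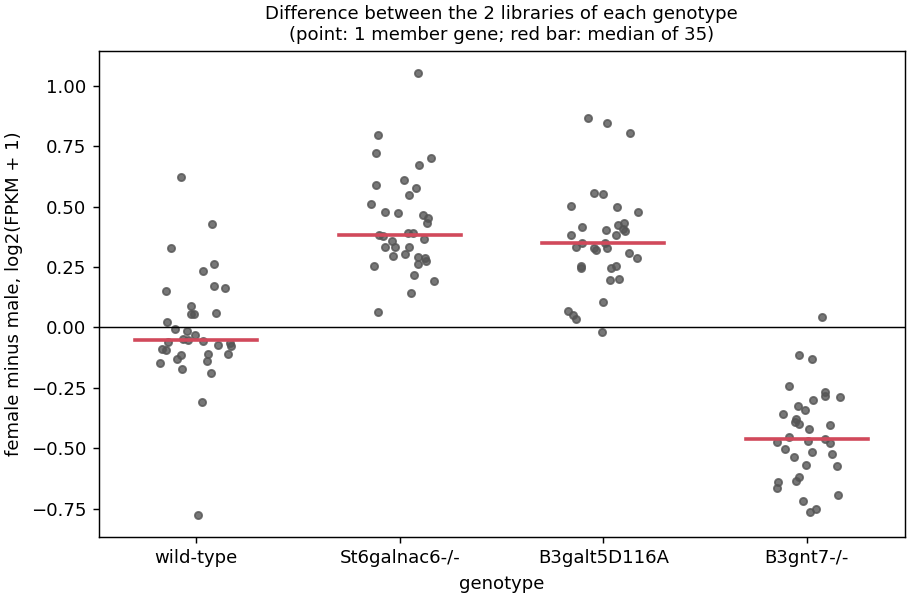
Difference between the female and the male library of each genotype in log2(FPKM + 1), with 1 point per member gene, spread sideways at random, and a red bar at the median of the 35. The points lie around 0 in wild-type, above 0 in St6galnac6-/- and, but for 1 gene, in B3galt5D116A, and below 0 in B3gnt7-/- but for 1 gene.

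For 26 of the 35 members the 3 highest libraries were the St6galnac6-/- female, the B3galt5D116A female and the B3gnt7-/- male, an order that 4.46% of all tested genes shared. This order was chosen after the values were seen, and it is given as a description. The 9 members with another order were Orc1, Cdt1, Gins1, Prim1, Rfc4, Ung, Tk1, Chaf1a and Chaf1b. The highest library was the B3galt5D116A female for 21 members (20.3% of tested genes), the St6galnac6-/- female for 10 (12.3%), the B3gnt7-/- male for 3 (7.12%) and the wild-type male for 1, Gins1. The lowest library was the B3gnt7-/- female for 11 members (22.9% of tested genes), the wild-type female for 11 (13.1%), the St6galnac6-/- male for 6 (6.34%), the wild-type male for 4 (13.2%) and the B3galt5D116A male for 3 (5.93%). The Pearson correlation of a member with the mean of the other 34, over 8 libraries that share depth and composition with both, had a median of 0.92. It was at least 0.9 for 18 members and under 0.6 for 4, which were Cdt1, Gins1, Ung and Chaf1b.

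The MCM helicase genes, which encode the 6 subunits of the ring, all had those 3 libraries highest. Mcm3 (mm10 chromosome 1 from 20802968 to 20820312) measured 10.6 FPKM (male) and 9.61 FPKM (female) in wild-type, against 12.5 and 17.8 with St6galnac6-/-, 12.6 and 17.9 with B3galt5D116A and 16.6 and 11.4 with B3gnt7-/-. Mcm2, in the same order, was at 10.1 and 9.41, 11.4 and 14.6, 11.6 and 13.9, and 13.9 and 10.2 FPKM. Every mutant library lay above both wild-type libraries for these 2 genes, though by little for Mcm2 in the B3gnt7-/- female. Mcm4 was at 9.39 and 8.89, 9.43 and 11.5, 9.78 and 13.5, and 12.7 and 8.98 FPKM. Mcm5 was at 13.5 and 10.7, 11.9 and 18.2, 14.8 and 19.8, and 17.2 and 10.8 FPKM, and 1 library of St6galnac6-/- and 1 of B3gnt7-/- lay within the wild-type range. For Mcm6 the levels were 22.7 and 23.1, 21.2 and 28.0, 22.9 and 32.8, and 27.2 and 21.5 FPKM. For Mcm7 they were 22.4 and 24.0, 23.7 and 30.8, 25.4 and 37.7, and 35.2 and 23.3 FPKM. The subunits were not at equal transcript levels, although the ring holds 1 copy of each. The mean FPKM of Mcm6 and Mcm7, a measure per length, was 1.90 to 2.44 times that of Mcm2 to Mcm5 in every library.

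Origin recognition and licensing genes were less uniform. Orc1, the largest subunit of the origin recognition complex (chromosome 4 from 108579423 to 108614833), measured 3.34 FPKM (male) and 3.25 FPKM (female) in wild-type, against 4.38 and 4.95 with St6galnac6-/-, 4.83 and 5.05 with B3galt5D116A and 3.46 and 3.12 with B3gnt7-/-. It was the member whose 2 libraries of a genotype lay closest, with female minus male differences of -0.11 to 0.14, and both its St6galnac6-/- and its B3galt5D116A libraries lay above wild-type. Cdc6, the loading factor, was at 1.62 and 1.95, 1.49 and 2.44, 1.94 and 2.92, and 2.48 and 1.68 FPKM, with the groups overlapping. Cdt1, its partner in loading the ring, had a mean of 10.2 FPKM in wild-type, against 8.77, 8.86 and 9.03 FPKM in the mutants. Its lowest value was in the B3galt5D116A male (6.18 FPKM) and its highest in the B3galt5D116A female library (11.5 FPKM). Orc6 ran from 6.80 FPKM in the B3gnt7-/- female to 11.1 FPKM in the B3gnt7-/- male library.

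Of the helicase activators, Cdc45 ran from 4.72 FPKM in the St6galnac6-/- male to 8.11 FPKM in the St6galnac6-/- female library. Gins2 ran from 7.24 FPKM in the B3gnt7-/- female to 13.7 FPKM in the St6galnac6-/- female library. Gins1, another subunit of GINS, measured 4.90 FPKM (male) and 2.45 FPKM (female) in wild-type, against 2.11 and 3.26 with St6galnac6-/-, 2.09 and 4.63 with B3galt5D116A and 4.57 and 2.28 with B3gnt7-/-. Its female minus male difference was -0.77 in wild-type, near the -0.76 of B3gnt7-/- and opposite to the 0.87 of B3galt5D116A.

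Primase and polymerase genes had modest levels. Prim1, the catalytic subunit of primase (chromosome 10 from 128015168 to 128030037), measured 7.76 FPKM (male) and 9.51 FPKM (female) in wild-type, against 9.32 and 12.2 with St6galnac6-/-, 11.7 and 14.5 with B3galt5D116A and 10.3 and 8.37 with B3gnt7-/-. Its 2 B3galt5D116A libraries lay above both wild-type libraries. Pola1, the catalytic subunit of the polymerase that works with primase, was at 2.95 and 3.64, 3.05 and 3.94, 3.23 and 4.24, and 4.42 and 2.80 FPKM, with overlap in every comparison. Pole, the catalytic subunit of the leading strand polymerase, ran from 2.22 to 3.47 FPKM, the male and female St6galnac6-/- libraries.

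Pcna (chromosome 2 from 132249162 to 132253314) was the most abundant member, with a mean of 110.4 FPKM over the 8 libraries against a median of 10.5 FPKM over the members' means. It measured 105 FPKM (male) and 97.4 FPKM (female) in wild-type, against 100.3 and 119.9 with St6galnac6-/-, 110.03 and 140.3 with B3galt5D116A and 124 and 85.9 with B3gnt7-/-. The clamp loader subunits Rfc3, Rfc4 and Rfc5 stood far lower, and Pcna was 7.83 to 9.48 times their mean FPKM in each library. Rfc4 was at 11.5 and 9.96, 9.38 and 12.1, 11.8 and 16.3, and 11.5 and 7.96 FPKM. Rfc5 was at 7.90 and 12.7, 11.7 and 16.2, 11.8 and 15.7, and 14.8 and 10.96 FPKM, with the wild-type male library apart from all others. Rfc3 ran from 12.6 FPKM in the wild-type female to 18.1 FPKM in the B3galt5D116A female library. Rpa2, a subunit of the single-strand binding protein, was at 7.32 and 6.52, 7.69 and 10.3, 9.22 and 13.4, and 9.78 and 6.88 FPKM, so that both libraries of St6galnac6-/- and of B3galt5D116A lay above wild-type and the B3gnt7-/- female lay within its range.

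Among the enzymes that finish Okazaki fragments, the flap nuclease Fen1 ran from 7.55 FPKM in the B3gnt7-/- female to 12.5 FPKM in the B3galt5D116A female library, and the ligase Lig1 from 13.4 FPKM in the wild-type female to 18.9 FPKM in the B3galt5D116A female library. Exo1, an exonuclease of mismatch repair, was the least abundant member at 0.851 to 1.84 FPKM. Ung, the glycosylase that removes uracil from DNA, measured 6.68 FPKM (male) and 7.59 FPKM (female) in wild-type, against 6.04 and 6.36 with St6galnac6-/-, 6.46 and 7.89 with B3galt5D116A and 7.02 and 6.33 with B3gnt7-/-. Its highest library was 1.31 times its lowest, the narrowest span of any member, where the median span was 1.77 times.

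Nucleotide supply genes held the member with the widest span. Rrm2, the regulatory subunit of ribonucleotide reductase, whose amount is known to rise in S phase (chromosome 12 from 24708241 to 24714146), measured 8.40 FPKM (male) and 8.78 FPKM (female) in wild-type, against 8.93 and 19.6 with St6galnac6-/-, 12.5 and 23.2 with B3galt5D116A and 13.8 and 7.80 with B3gnt7-/-. Its highest library was 2.97 times its lowest, while Tyms, of the same role, spanned 1.51 times. Rrm1, the large subunit, was at 13.1 and 12.6, 13.2 and 22.4, 16.8 and 21.7, and 18.8 and 12.7 FPKM. The ratio of Rrm2 to Rrm1 in FPKM was 0.615 to 0.741 in 6 libraries, 0.876 in the St6galnac6-/- female and 1.07 in the B3galt5D116A female library. Rrm2 thus exceeded Rrm1 in 1 library. Tk1, thymidine kinase, was at 16.1 and 22.0, 19.8 and 32.8, 31.0 and 31.8, and 30.9 and 18.4 FPKM, and it was the member of this role whose 2 B3galt5D116A libraries were nearly equal. Tyms, thymidylate synthase, was at 10.4 and 10.9, 10.1 and 12.5, 12.0 and 14.4, and 12.0 and 9.55 FPKM. Dut, which breaks down dUTP, ran from 6.98 FPKM in the B3gnt7-/- female to 14.8 FPKM in the B3galt5D116A female library.

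Chromatin assembly and checkpoint genes completed the list. Uhrf1, which brings DNA methylation to the new strand, measured 11.3 FPKM (male) and 10.4 FPKM (female) in wild-type, against 11.4 and 17.7 with St6galnac6-/-, 12.8 and 17.3 with B3galt5D116A and 18.4 and 11.2 with B3gnt7-/-. Slbp, which binds the stem-loop of histone messages, was at 34.9 and 32.2, 31.2 and 35.7, 31.1 and 39.1, and 35.5 and 27.6 FPKM, with the mutant groups all overlapping wild-type. The 2 subunits of the histone chaperone CAF-1 differed, as Chaf1a ran from 4.92 FPKM in the St6galnac6-/- male to 9.29 FPKM in the St6galnac6-/- female library, while Chaf1b was at 5.73 and 6.48, 6.11 and 7.59, 5.23 and 7.24, and 5.85 and 6.05 FPKM. Clspn, the fork checkpoint adaptor, was at 2.42 and 2.40, 3.16 and 5.09, 3.38 and 3.59, and 3.91 and 2.55 FPKM (chromosome 4 from 126556935 to 126593903). All 6 mutant libraries lay above both wild-type libraries for Clspn, as they did for Mcm2 and Mcm3. These were 3 of 35 members, against 7.23% of tested genes for which all mutant libraries were higher, and all were lower for 0 members (8.32% of tested genes).

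The comparison of St6galnac6-/- with wild-type asks whether loss of this sialyltransferase goes with a change in the replication genes. No member passed. Limma, with genotype and sex as additive terms over all 8 libraries, called 0 of 35 members at an adjusted p under 0.05 (0.0867% of the 11537 tested genes were called), and 2, both positive, had an unadjusted p under 0.05 (9.04% of tested genes). The median log2 difference of the members was 0.21 and 30 of 35 were positive, beside a median of 0.0030 and 50.6% positive over all tested genes. Orc1 had the smallest p, with a log2 difference of 0.40 (SE 0.14, 95% interval 0.07 to 0.73, limma adjusted p = 0.481), followed by Clspn at 0.56 (SE 0.24, adjusted p = 0.548), Mcm3 at 0.52 (adjusted p = 0.585) and Mcm2 at 0.37 (adjusted p = 0.622). Rrm2 was at 0.58 with an interval from -0.35 to 1.51 (adjusted p = 0.712). Both mutant libraries were above both wild-type libraries for 10 of 35 members, where 24.1% of tested genes were, a share near the background. Both were below for 2, Cdt1 and Ung (23.6% of tested genes). The female library carried the difference, since 33 of 35 members were above the wild-type female and 17 of 35 above the wild-type male. Without the St6galnac6-/- female library the median was -0.0084, and without the male it was 0.42. Without the B3gnt7-/- female library 30 of 35 members were positive. The count at an unadjusted p under 0.05 rose without that library, and rose or fell with other libraries left out. It was 5 in a fit of only these 2 genotypes (12.1% of tested genes).

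**Figure D3:**
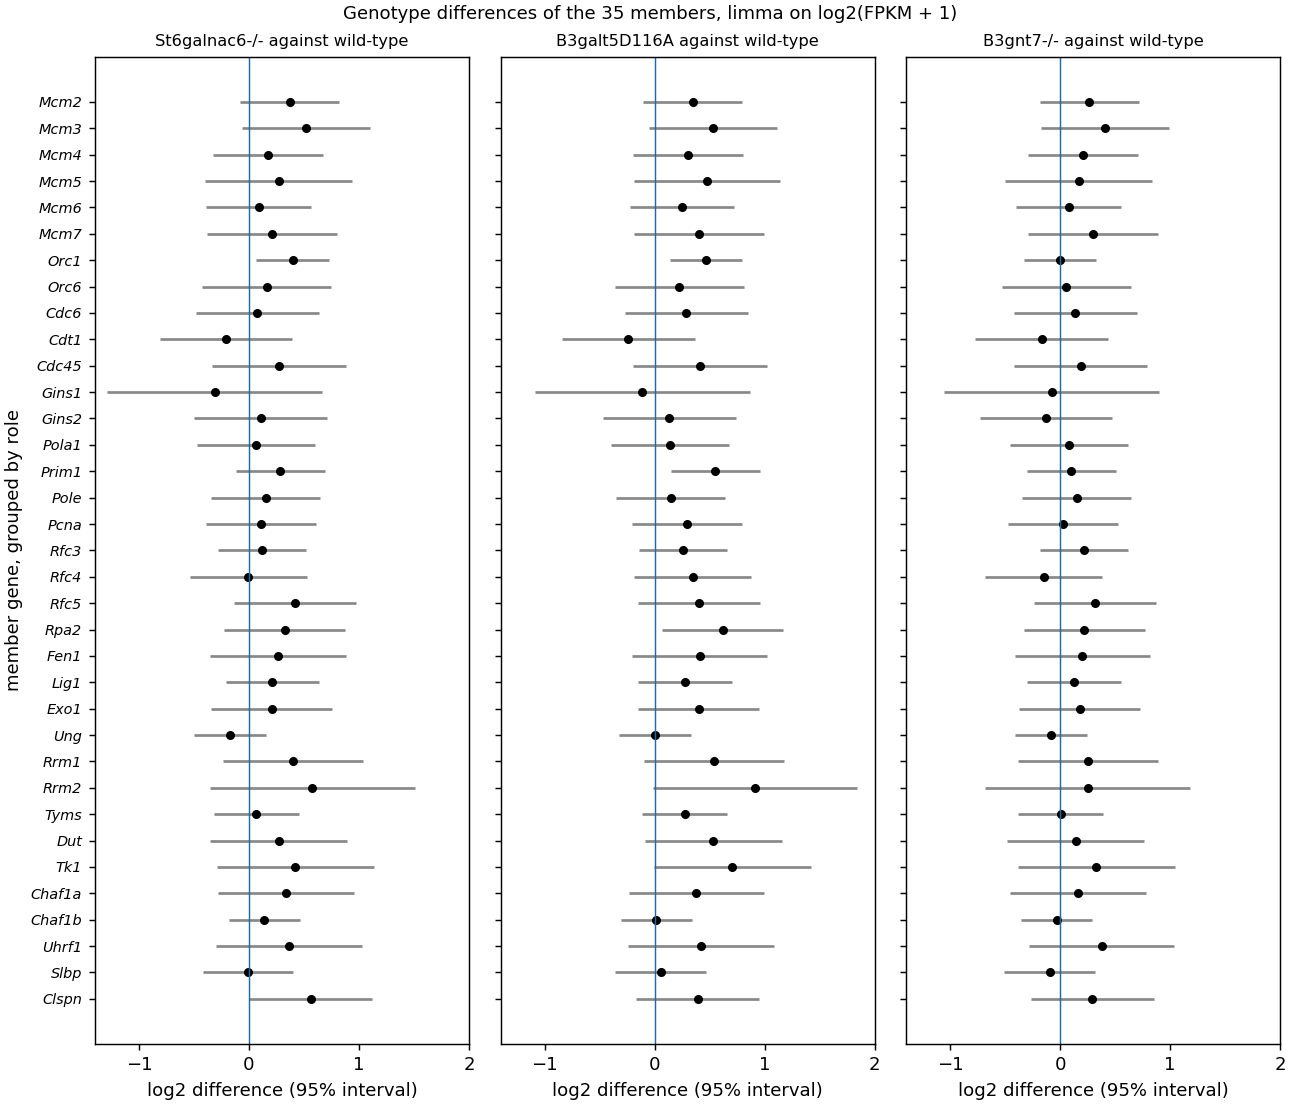
Log2 difference of each of the 35 members (rows) from wild-type in St6galnac6-/-, B3galt5D116A and B3gnt7-/- (panels), with points at the limma estimate and lines over its 95% interval. Most points lie right of 0, for 30, 33 and 27 of 35 members, and most intervals cross 0.

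B3galt5D116A against wild-type gave the largest median of the 3 mutants, again with no member past the threshold. Limma called 0 of 35 (0.078% of tested genes were called) and 3, all positive, had an unadjusted p under 0.05 (11.7% of tested genes). The median log2 difference was 0.35 and 33 of 35 were positive, beside 0.0012 and 50.2% over all tested genes. Orc1 was at 0.47 (SE 0.14, 95% interval 0.14 to 0.80, limma adjusted p = 0.354), Prim1 at 0.55 (SE 0.17, adjusted p = 0.366), Rpa2 at 0.62 (adjusted p = 0.399) and Tk1 at 0.71 (adjusted p = 0.426). Rrm2 had the largest difference, 0.91, with an interval from -0.02 to 1.84 (adjusted p = 0.426). For 25 of 35 members both mutant libraries lay above both wild-type libraries, where 26% of tested genes did, and for 0 both lay below (25.3% of tested genes). Against wild-type of the same sex, 30 of 35 members were higher in the male library (median 0.17) and 35 of 35 in the female (median 0.51). The count at an unadjusted p under 0.05 depended on the libraries that set the spread, and was 16 in a fit of only these 2 genotypes (14.1% of tested genes). Without the B3gnt7-/- female library 33 of 35 members were positive and this count was higher. The count also rose or fell with other libraries left out, and over all libraries left out the median ran from 0.16 to 0.50.

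B3gnt7-/- against wild-type gave the smallest median. Limma called 0 of 35 members (0.052% of tested genes were called), with 0 at an unadjusted p under 0.05 (7.17% of tested genes). The median log2 difference was 0.15 and 27 of 35 were positive, beside -0.0095 and 47.9% over all tested genes. The smallest p belonged to Mcm3 at 0.41 (SE 0.25, 95% interval -0.17 to 0.99, limma adjusted p = 0.793), Mcm2 at 0.26, Rfc5 at 0.32 and Uhrf1 at 0.38 (adjusted p = 0.833). Both mutant libraries lay above wild-type for 5 of 35 members, where 16% of tested genes did, and below it for 0 (18.6%). The 2 libraries went apart, as 32 of 35 members were above the wild-type male in the male library (median 0.37) and 12 of 35 above the wild-type female in the female (median -0.07). Without the B3gnt7-/- female library, which stands apart in stromal and heat shock genes, the median was 0.49 and 17 members had an unadjusted p under 0.05 (10.6% of tested genes), with 0 called. Without the male library the median was -0.21, 25 members changed sign and 2 had an unadjusted p under 0.05 (10.5%). Their part in this split was not tested.

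With the 3 mutants averaged against wild-type, 0 of 35 members were called (0.182% of tested genes were) and 2, both positive, had an unadjusted p under 0.05 (11.3% of tested genes). The median was 0.26 with 31 of 35 positive. Orc1 was at 0.29 (SE 0.11, limma adjusted p = 0.419), Mcm3 at 0.49 (adjusted p = 0.433), Prim1 at 0.31, Clspn at 0.42 and Rrm2 at 0.58 (adjusted p = 0.538). The 4 members below 0 were Cdt1, Gins1, Ung and Slbp. Without the B3gnt7-/- female library 32 of 35 members were positive and the count at an unadjusted p under 0.05 was higher. That count rose or fell with other libraries left out, and over all libraries left out the median ran from 0.15 to 0.34. These comparisons share the 2 wild-type libraries, so their directions are not independent of each other.

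Between mutants no member was called. St6galnac6-/- against B3galt5D116A had a median of -0.14 with 0 called (0.026% of tested genes were called) and 0 at an unadjusted p under 0.05 (3.51%). St6galnac6-/- against B3gnt7-/- had a median of 0.09 with 0 called (0.0433%) and 1 unadjusted (3.81%), which was Orc1. B3galt5D116A against B3gnt7-/- had a median of 0.17 with 0 called (0.00867%) and 2 unadjusted (4.2%), Orc1 at 0.47 (SE 0.14, limma adjusted p = 0.770) and Prim1 at 0.45. Each of these medians changed sign when 1 library was left out. Without the B3gnt7-/- male library, 19 members had an unadjusted p under 0.05 in B3galt5D116A against B3gnt7-/- (19.9% of tested genes) and 11 in St6galnac6-/- against B3gnt7-/- (10.4%), with 0 called. Without the B3gnt7-/- female these counts were 0 (2.37%) and 2 (5.43%).

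By role, the nucleotide supply genes had the largest median differences of the roles with over 1 member. Their 5 members were all positive in each mutant, with medians of 0.40 in St6galnac6-/-, 0.54 in B3galt5D116A and 0.25 in B3gnt7-/-. The 6 MCM genes were also all positive, with medians of 0.24, 0.37 and 0.24 in the same order. The 3 helicase activators had 0.11, 0.14 and -0.08. None of these members passed the test over all genes, and roles were not tested against each other.

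Other genes of the pathway moved with the members. Of 42 other replication genes, all tested, 0 were called in any mutant, and the medians were 0.19, 0.27 and 0.13 in St6galnac6-/-, B3galt5D116A and B3gnt7-/-. The smallest p in the average of the mutants belonged to Rnaseh2b, a subunit of ribonuclease H2 (log2 0.38), Cdc7, the kinase that fires origins (log2 0.60, limma adjusted p = 0.344), and the origin subunit Orc5 (log2 0.30). Of 35 other nucleotide synthesis genes 0 were called, with medians of 0.12, 0.15 and 0.04, and the smallest p belonged to the purine enzymes Atic (log2 0.34) and Gart (log2 0.30) and to the CTP synthase Ctps (log2 0.50). Of 19 tested G1/S regulators 0 were called, with medians of 0.14, 0.16 and 0.15. Among them Myc, the growth regulator, measured 19.0 FPKM (male) and 23.5 FPKM (female) in wild-type, against 36.2 and 34.2 with St6galnac6-/-, 30.9 and 31.8 with B3galt5D116A and 32.5 and 21.9 with B3gnt7-/-, for a log2 difference of 0.53 (adjusted p = 0.313). Of 7 tested CDK inhibitors 0 were called, with medians of 0.27, 0.13 and -0.0029. In the average of the mutants 4 of them were positive and 3 negative. Cdkn2b, an inhibitor of the G1 kinases, had a log2 difference of -0.59 (limma adjusted p = 0.109). All 6 mutant libraries were at 27.0 to 34.3 FPKM and wild-type at 51.7 and 43.6 FPKM, where 8.32% of tested genes had all mutant libraries lower. Cdkn3 and Cdkn1b, next by smallest p, were higher, at 0.72 (limma adjusted p = 0.369) and 0.23 (limma adjusted p = 0.428).

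Mitosis genes shared the direction but not the exact order. All 30 were positive in each mutant and 0 were called, with medians of 0.70 in St6galnac6-/-, 0.79 in B3galt5D116A and 0.39 in B3gnt7-/-. An unadjusted p under 0.05 was reached by 9 of 30 in St6galnac6-/- (9.04% of tested genes) and 18 in B3galt5D116A (11.7%). In B3gnt7-/- it was reached by 0 (7.17%). The same counts for the 35 members were 2, 3 and 0. This list, too, was chosen with earlier results known. Males first, their mean log2 level was 3.27 and 3.39 in wild-type, 3.61 and 4.40 in St6galnac6-/-, 4.07 and 4.14 in B3galt5D116A and 4.09 and 3.35 in B3gnt7-/-. In the B3galt5D116A male library they stood near the level of the female, while the replication members stood well below it. The mean of mitosis genes minus that of the members was 0.0014 and 0.13 in wild-type, 0.35 and 0.72 in St6galnac6-/-, 0.65 and 0.36 in B3galt5D116A and 0.47 and 0.18 in B3gnt7-/-, so it was lowest in the 2 wild-type libraries, with the B3gnt7-/- female next. Messages of replication-dependent histones, which lack a poly(A) tail and are poorly caught by mRNA selection, had 19 of 68 genes tested and 0 called, with medians of 0.13, 0.32 and 0.11.

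**Figure D4:**
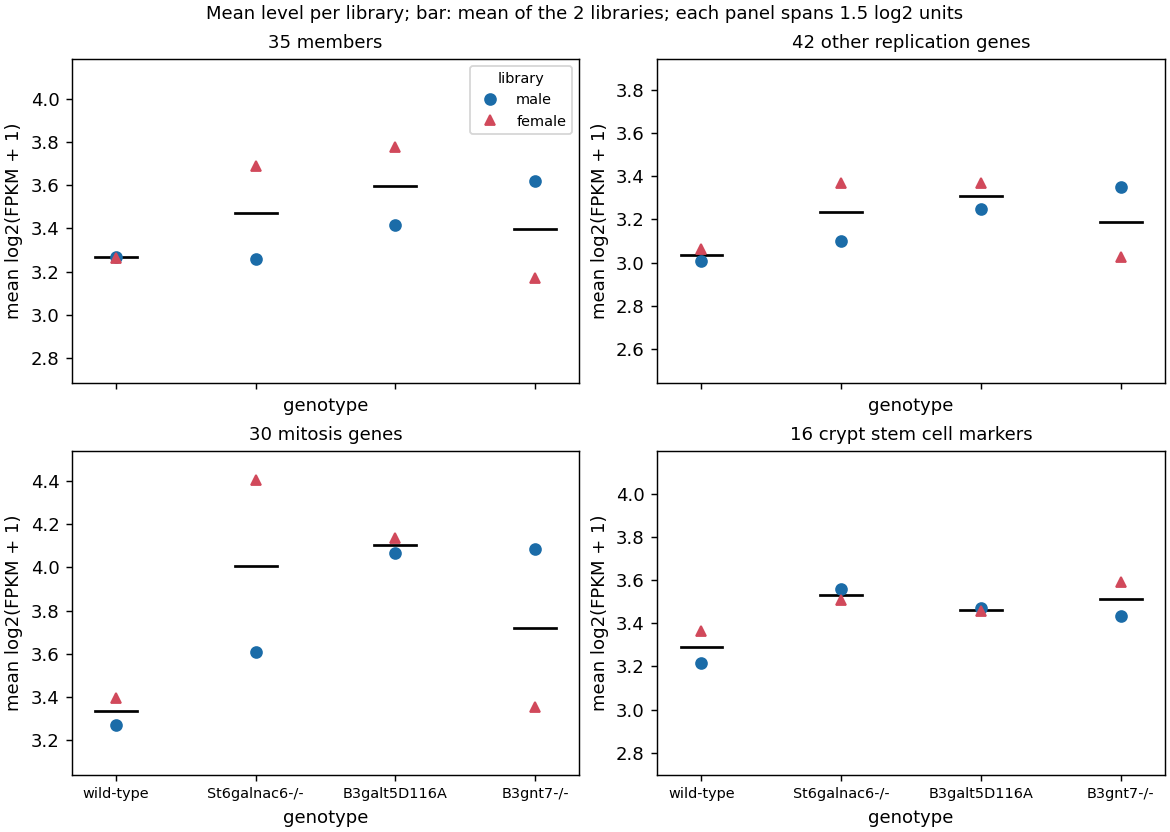
Mean log2(FPKM + 1) over 4 gene lists (panels) in each library, by genotype, with circles for males, triangles for females and bars at the mean of the 2 libraries. Each panel spans 1.5 log2 units. The 2 replication lists and the mitosis genes separate the libraries of St6galnac6-/- and of B3gnt7-/- in opposite directions, and the stem cell markers do not follow that order.

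Markers of crypt stem cells did not follow the library order of the members, though every mutant library lay above both wild-type libraries. The mean log2 level of these markers was 3.22 and 3.36 in wild-type, 3.56 and 3.51 in St6galnac6-/- and 3.47 and 3.46 in B3galt5D116A. It was 3.43 and 3.59 in B3gnt7-/-, where the library lowest in replication genes was highest. Of 14 tested, 13, 10 and 12 were positive in the same order of mutants, with medians of 0.29, 0.13 and 0.18, and 0 were called. Goblet cell markers were at 7.49 and 7.62 in wild-type and 8.22 to 8.97 in the mutants. Of these 12, 1 was called in St6galnac6-/- (0.0867% of tested genes) and 1 in the average of the mutants (0.182%). Absorptive colonocyte markers ran from 7.88 to 8.61, with St6galnac6-/- lowest at 7.91 and 7.88 and wild-type at 8.43 and 8.51. All 16 were lower than wild-type in St6galnac6-/- (median -0.40), 7 in B3galt5D116A and 10 in B3gnt7-/-, and 0 were called. How these marker levels bear on the members was not tested. T and intraepithelial lymphocyte markers summed to 14.5 to 18.1 FPKM over 13 genes in wild-type and St6galnac6-/-. With B3galt5D116A the sums were 12.3 and 26.2 FPKM, and with B3gnt7-/- 24.7 and 28.4 FPKM. The last value comes from the library with the lowest replication genes. Germinal centre B cell markers summed to 9.19 to 12.9 FPKM over 6 genes. Heat shock genes had means of 7.20 and 7.60 in wild-type, 8.33 and 8.36 in St6galnac6-/-, 8.23 and 8.29 in B3galt5D116A and 8.45 and 6.28 in B3gnt7-/-, so they split B3gnt7-/- as the members did but not St6galnac6-/-. Their part in the result was not tested.

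Outside the members, tested genes whose log2 levels followed the members' mean most closely over the 8 libraries included Sf3b5, Ddias, Uchl3, Mthfd2, Snrpd1, Tuba1b, Lyar, H2afy and Nup37, with Pearson r of 0.97 to 0.98. With 8 libraries and so many genes, such values are a description. Mthfd2, a mitochondrial folate enzyme, measured 3.54 FPKM (male) and 3.99 FPKM (female) in wild-type, against 3.36 and 5.41 with St6galnac6-/-, 4.38 and 6.76 with B3galt5D116A and 5.39 and 3.38 with B3gnt7-/-. Mthfd2 and the splicing proteins Sf3b5 and Snrpd1 had the same highest 3 libraries, as did others of these genes, Uchl3 and Tuba1b among them. Their choice by correlation with the members makes this likely.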

How the data were processed

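RNA of colon epithelial cells was sequenced in 8 libraries, prepared with the TruSeq stranded mRNA kit per the labels' protocols. The authors deposited 1 table of FPKM values per library, per the file headers. Cuffdiff 2.2.1, SAMtools 0.1.18, Bowtie2 2.2.8 and TopHat2 2.1.1 were used on mm10, per the submitters' processing notes. Parameters, annotation and scaling between libraries are not given in the sources used here. Values were taken as log2(FPKM + 1), so differences of low genes are understated. A mean FPKM of 1 or more over the libraries left 11537 genes, which were fitted with limma 3.58.1 in R 4.3.3 (trend=TRUE), the model holding genotype plus sex over the 8 libraries (3 residual and 4.02 prior degrees of freedom), two-sided, with Benjamini-Hochberg adjustment over all tested genes and a threshold of 0.05. The fit was tested on simulated data whose planted changes were larger than the difference of any member from wild-type. That test therefore does not show whether changes of the members' size could be called. Sex, named in the labels, is the term that pairs libraries across genotypes. The alternatives changed the scaling (quantile normalization or centring on the median), the pseudocount (0.1 or 5) and the minimum mean (none or 5 FPKM). Others were a model lacking sex, fits of only the genotypes compared, a constant prior variance and each library left out. The members, lists and alternatives were chosen with earlier results of these data known, so no p is given for the list as a whole. Library values were printed for the MCM genes, Pcna, Rrm1, Rrm2, Tyms and the 4 members with the smallest and the largest p in each mutant, and up to 3 genes of other lists by smallest p. Gene positions are from GENCODE M21 (mm10), and promoters from RefSeq (GRCm38.p6), which matched 30 members by symbol. Some genes are not reported here.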

Additional observations from a re-analysis of the deposited data

Results flagged for a closer look

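The female minus male difference was positive in St6galnac6-/- and B3galt5D116A, near 0 in wild-type and negative in B3gnt7-/-. These differences were not tested, since each combination had 1 library. The B3gnt7-/- female library also stands apart in stromal and heat shock genes. The female minus male difference of the members' mean log2 level was 0.43 in St6galnac6-/- and -0.45 in B3gnt7-/-, 0.87 apart, and 0.36 in B3galt5D116A, 0.81 from B3gnt7-/-. In wild-type it was -0.01, a gap of -0.43 to St6galnac6-/- and -0.37 to B3galt5D116A. The St6galnac6-/- minus wild-type difference was -0.01 in males and 0.42 in females, a gap of -0.43, and that of B3gnt7-/- was 0.35 in males and -0.09 in females, a gap of 0.44. For single genes in B3gnt7-/-, Rfc5 was 0.83 above wild-type in males and 0.20 below it in females, 1.03 apart, and Rrm2 differed between the sexes by 0.81.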

How the results depend on the processing

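No member was called in any of the 8 comparisons under any of the alternatives run (133 counts, each 0), the fit with no replicate block (no sex term) included, where the count was 0 and the block changed no call. The members' median log2 difference stayed within the pooled spread (SD 0.25) of its value in 126 of 133 alternatives, and the other 7 left out 1 library. That spread was larger than most of the medians themselves, so this count does not show that the medians held. The St6galnac6-/- median, 0.21 in the main fit, fell to -0.0084 without its female library and still counted as within the spread. Over the libraries left out the median ran from -0.0084 to 0.42 for St6galnac6-/-, 0.16 to 0.50 for B3galt5D116A, -0.21 to 0.49 for B3gnt7-/- and 0.15 to 0.34 for the mean of the mutants, each against wild-type. It ran from -0.35 to 0.13 for St6galnac6-/- against B3galt5D116A, -0.29 to 0.45 for St6galnac6-/- against B3gnt7-/- and -0.17 to 0.53 for B3galt5D116A against B3gnt7-/-. In B3gnt7-/- against wild-type, 25 of 35 members changed sign without the B3gnt7-/- male library. Among the 5 members whose difference is printed for that comparison, 4 did, with ranges over the libraries left out of -0.027 to 0.55 for Mcm2, -0.13 to 0.76 for Rfc5, -0.10 to 0.86 for Uhrf1 and -0.45 to 0.95 for Rrm2. The smallest limma adjusted p of any member under any alternative was 0.0766, in the mean of the mutants. Over all genes, calls went from 10 to 23 in St6galnac6-/-, from 9 to 16 in B3galt5D116A and from 21 to 40 in the mean of the mutants with no sex term, and with no filter to 24, 30 and 12. Without the B3gnt7-/- male library they were 65 in St6galnac6-/-, 15 in B3galt5D116A, 53 in B3gnt7-/- (from 6) and 80 in the mean, and without the female 60, 14, 12 and 62. Without a wild-type library the calls in the mean were 5 (male) and 2 (female). In B3galt5D116A against B3gnt7-/- they went from 1 to 49, and in St6galnac6-/- against B3gnt7-/- from 5 to 44, without the B3gnt7-/- male. Where an arm kept 1 library, that library was assumed to vary like the other groups. Read depth is unknown, so the precision at low FPKM cannot be stated.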
